A study of Arabidopsis thaliana with 8 samples.

Results

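Nuclei of an inner and an outer tissue of the globular Arabidopsis embryo, the vascular initials and the protoderm, were compared within 8 plates. Counts of marker genes chose the nuclei of each side. A nucleus was kept if it held 100000 counts or more, 1000 detected features or more, no read of CLSY1 (AT3G42670) or DML3 (AT4G34060), and reads of fewer than 2 of 4 seed coat genes (AT3G05460, AT5G63087, AT1G58055 and AT5G54220). Of 744 sorted nuclei, 534 had enough counts and features, and 216 of these also passed the exclusions. An inner nucleus had reads of at least 2 of 5 inner genes (SMXL5, AT3G15680, SMXL3, ATHB8 and TMO6) and of at most 1 outer gene. An outer nucleus had reads of at least 3 of 4 outer genes (PDF1, ATML1, DCR and BDG1) and of no inner gene. This gave 31 inner nuclei and 69 outer nuclei, 100 of 744 in all, and left 116 nuclei on neither side.

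Both sides came from the same material. Nuclei were sorted from globular embryos of Col-0 plants, labelled wild type, within dissected developing seeds taken 72 h after pollination from pooled self-pollinated siliques. Per the study's methods, sorting relied on DAPI signal and on nuclear GFP driven by the WOX2 promoter, so the embryos carried pWOX2::H2B-GFP and pWOX2::tdTomato-RCI2b, and nuclei with little activity of that promoter could be missed. Each nucleus gave 1 full-length Smart-seq2 library without molecular identifiers, so reads are not independent molecules and every interval given here covers counting error only. The 8 plates of 93 wells are the replicates, and the same 93 index pairs served every plate. Both sides of a plate were compared with each other, so p-values measure how the difference between sides varied over plates. The labels do not say that plates came from separate plants, so this spread may be technical. Plates held from 1 to 7 inner nuclei and from 1 to 17 outer nuclei. Plate 3 had 1 inner nucleus and plate 4 had 1 outer nucleus.

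In the globular embryo the first divisions that run parallel to the surface separate an outer layer from inner cells. The outer layer, the protoderm, is specified by HD-ZIP IV transcription factors such as ATML1 and PDF2, and it begins to make the cuticle, a lipid polyester with waxes that seals the embryo. Inner cells respond to auxin through the factor MONOPTEROS (MP), and the innermost of them become vascular initials, where ATHB8, TMO6 and the SMXL3 and SMXL5 proteins of later phloem are expressed. PLETHORA (PLT) factors mark the lower, root-forming part of these inner tissues.

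The genes of the rule describe the sides and carry no test. SMXL5 had reads in 80.6% of inner nuclei and AT3G15680, which encodes a RanBP2-type zinc finger protein, in 90.3% of them. ATHB8 (an HD-ZIP III factor) had reads in 45.2%, SMXL3 in 41.9% and TMO6 (a DOF factor) in 32.3% of inner nuclei, and by the rule all 5 were at 0% in outer nuclei. Thus no inner gene marked every inner nucleus, and 13 of the 31 were at the limit with 2 inner genes, 11 had 3, 4 had 4 and 3 had all 5. PDF1, a proline-rich cell wall protein of the epidermis, had reads in 16.1% of inner nuclei and 97.1% of outer nuclei. ATML1 had reads in 9.68% of inner nuclei and 92.8% of outer nuclei. DCR, an acyltransferase of cutin synthesis, had reads in 16.1% and BDG1, an extracellular hydrolase of the cuticle, in 0% of inner nuclei, against 85.5% and 68.1% of outer nuclei. Of the inner nuclei, 18 had no outer gene and 13 had 1. Of the outer nuclei, 39 had 3 outer genes and 30 had all 4. Just outside the limits lay 16 nuclei with 1 inner gene and at most 1 outer gene, and 27 nuclei with 2 outer genes and no inner gene. Nuclei with a mix of both kinds were also on neither side. Among them were 8 with 1 inner and 3 outer genes, 2 with 1 inner and 4 outer genes, and 5 with 2 of each.

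The median depth was lower on the inner side, a difference that did not pass a test over plates. The median inner nucleus had 401681 counts and 2355 detected features, and the median outer nucleus had 514541 counts and 2504 features. Plate medians of counts averaged 422724 ± 186349 in inner nuclei and 554870 ± 148365 in outer nuclei (SD, n = 8 plates). Counts were higher in inner nuclei on 2 of the 8 plates (p = 0.125, exact two-sided sign-flip permutation test over plates). After every nucleus was thinned to 100000 counts, plate medians averaged 2116 ± 470 features in inner nuclei and 2243 ± 360 in outer nuclei (SD, n = 8 plates). Inner nuclei were higher on 4 of the 8 plates, and an exact two-sided sign-flip permutation test over plates gave p = 0.375 (smallest possible p 0.00781). Mitochondrial genes took a median of 3.28% of the counts of an inner nucleus and 5.14% of those of an outer nucleus, and chloroplast genes 2.34% and 1.94%.

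The edgeR test called few genes between the sides, and most of those called were higher in outer nuclei. Counts were summed per side and plate and tested with edgeR's quasi-likelihood test with plate as a block, with Benjamini-Hochberg adjustment over 5303 genes and a threshold of 0.05. Log2 differences are inner minus outer, and levels are CPM (counts per 1000000, TMM-normalized). Genes with an adjusted p under the threshold and higher in inner nuclei numbered 2, which is 0.0377% of the genes tested, and those higher in outer nuclei numbered 14, which is 0.264%. At an unadjusted p under 0.05 there were 25 and 320. The median gene had a fitted log2 difference of -1.63, and the differences printed here are not corrected for it. The same 31 inner and 69 outer nuclei gave a median of -0.32 without the plate block. What set this offset was not tested. With equal numbers of nuclei drawn from both sides of each plate the median gene was at 0.28 and the test called 4 genes higher in inner and 3 higher in outer nuclei among 2170. limma on mean log levels per nucleus, with the median gene at -0.01, called 13 and 23. DESeq2 on the same sums called 79 and 967. The sums of the edgeR fit varied widely, with a median biological coefficient of variation of 1.99. Genes that it did not call may therefore still differ between the sides. Without plate 4, whose outer side was 1 nucleus, 27 genes were higher in outer nuclei, and without plate 2 there were 6. The balance of calls between the 2 directions thus changed with the number of nuclei and with the method.

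ACI1 and AT3G56770 were the 2 genes higher in inner nuclei. ACI1 (AT5G01370, chromosome 5, 152446 to 154467), named as an interactor of the fruit factor ALCATRAZ and annotated also as a TON1 recruiting motif protein, had a lowest, median and highest level of 341, 975 and 3214 CPM over the 8 plates in inner nuclei, against 0, 2.16 and 433 CPM in outer nuclei. It was higher on 8 of 8 plates, and the sides overlapped through 1 outer plate only. A single nucleus held 86.8% of all outer reads of the gene. The log2 difference was 8.21 ± 1.73 (SE, edgeR adjusted p = 0.0021). Reads were present in 21 of 31 inner nuclei (67.7%, exact 95% interval 48.6 to 83.3%), 9 of 69 outer nuclei (13.0%, 6.14 to 23.3%) and 30.2% of the nuclei on neither side.

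AT3G56770 (chromosome 3, 21028902 to 21030754) encodes a transcription factor of the basic helix-loop-helix class. Its lowest, median and highest levels were 21.7, 194 and 947 CPM in inner nuclei, against 0 CPM on every plate in outer nuclei. The sides did not overlap, which the count filter required of a gene at 0 on a whole side. It had 1995 counts over 21 of 31 inner nuclei and 0 counts in 69 outer nuclei. Inner reads per count sequenced were 1573 times a floor of 3 counts over all outer nuclei. Reads are not independent molecules, so this ratio is no lower bound on the difference. A count of 0 in 69 nuclei allows a share of up to 5.21% (exact upper bound), and the adjusted p was 0.00471 (edgeR). Of the nuclei on neither side 10.3% had reads of it.

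HAN, ROPGEF3 and PLT1 followed in the order of p without passing the threshold. PLT1 (AT3G20840), a PLETHORA factor of root stem cells, had 102, 939 and 2401 CPM (lowest, median, highest) in inner nuclei, against 0, 52.9 and 880 CPM in outer nuclei. It was higher in inner nuclei on 7 of 8 plates, but the plates overlapped, and the adjusted p was 0.179 (edgeR). HAN (AT3G50870), a GATA factor that positions the boundary between embryo regions, had 3.54, 572 and 1064 CPM in inner nuclei, against 0, 0.846 and 36.8 CPM in outer nuclei. It was higher in inner nuclei on 8 of 8 plates with a log2 difference of 7.70 ± 2.28 (adjusted p = 0.125, edgeR). ROPGEF3 (AT4G00460), an activator of ROP GTPases that overlaps AT4G00450 on the other strand, had 0, 455 and 794 CPM in inner nuclei, against 0, 0.103 and 207 CPM in outer nuclei, with an adjusted p of 0.137 (edgeR).

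These 5 genes were also compared by how many nuclei carried a read, a measure that 1 nucleus with many reads cannot move, and 3 of them passed the threshold. Shares were compared on nuclei thinned to 100000 counts by exact two-sided sign-flip permutation tests over the 8 plates, adjusted over the 66 genes selected for description by the Benjamini-Hochberg method. Many of these genes were chosen by the fit to the same nuclei, and others after their values were seen. The shares thus describe them in a second way and are not independent of the fit. The smallest p possible with 8 plates is 0.00781 before adjustment. An adjusted p under 0.05 was reachable only because many of the 66 genes were at or near that limit. Passing thus depends on how the 66 were chosen, here and for the shares below, and is no separate evidence. PLT1 had reads in 93.5% of inner nuclei and 17.4% of outer nuclei (adjusted p = 0.0286, exact permutation test), HAN in 61.3% and 4.35% (0.0413), and AT3G56770 in 64.5% and 0% (0.0286). ACI1 was at 64.5% and 10.1% and ROPGEF3 at 51.6% and 5.80%, each with an adjusted p of 0.0573 (exact permutation test).

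**Figure D1:**
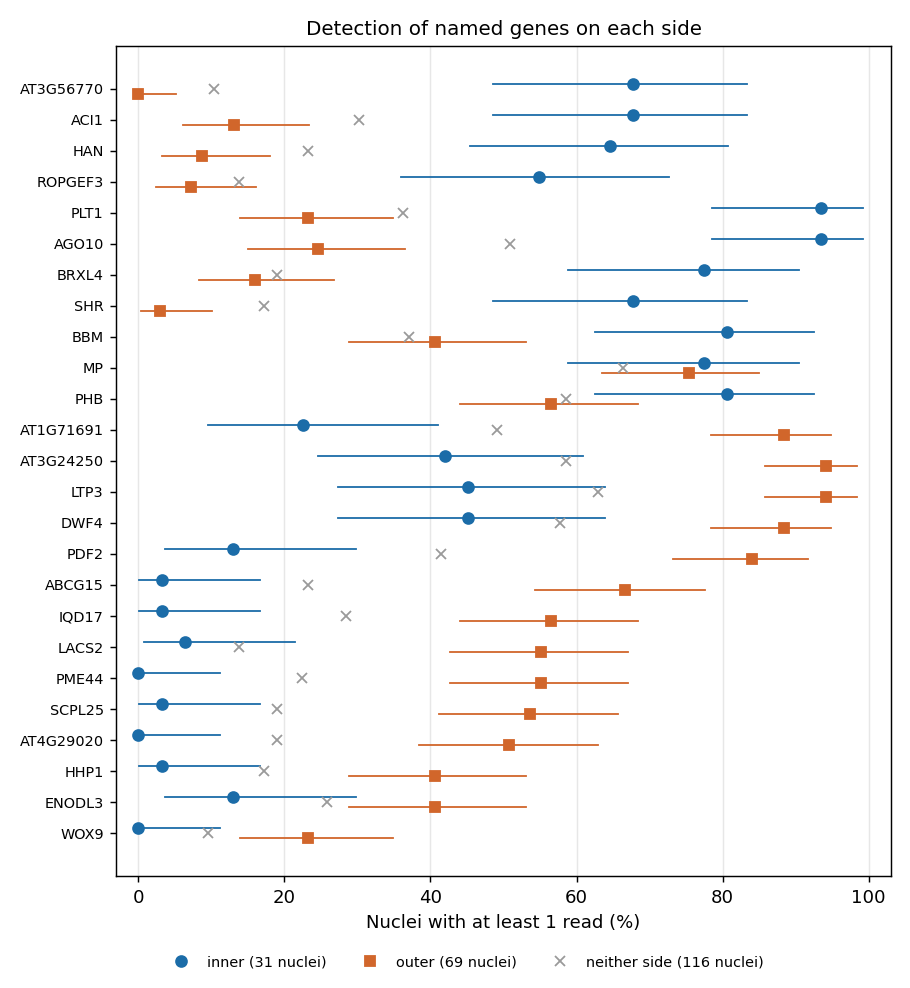
Share of nuclei with at least 1 read (x axis, percent, not thinned) of each named gene (rows), with inner nuclei as circles, outer nuclei as squares and nuclei on neither side as crosses. Lines are exact 95% binomial intervals. From AT3G56770 (67.7% inner, 0% outer) down to BBM the circles lie to the right, MP (77.4% and 75.4%) is near even, PHB (80.6% and 56.5%) has its circle to the right, and from AT1G71691 (22.6% and 88.4%) down the squares lie to the right.

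On the outer side the leading gene was AT1G71691 (chromosome 1, 26948743 to 26951547), which encodes a lipase of the GDSL family, the class of enzymes to which the cutin synthases belong. It had 0, 0 and 65.2 CPM (lowest, median, highest) in inner nuclei, against 632, 4023 and 4937 CPM in outer nuclei. The sides did not overlap, the log2 difference was -10.89 ± 1.27, and the adjusted p was 5.99e-14 (edgeR), the smallest of the 5303 genes tested. Its reads were found in 22.6% of inner nuclei and 88.4% of outer nuclei. The gene overlaps AT1G71690 on the other strand, and reads of the shared stretch cannot be told apart, since Smart-seq2 libraries do not mark strand.

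The upstream window of AT1G71691 is shown because it is the one window among the genes called here that held an L1 box, the element bound by the HD-ZIP IV factors ATML1 and PDF2. These are the 250 bases before the gene's start in TAIR10.1 (RefSeq), chr1:26951548-26951797 on the minus strand, 5′ to 3′, with the L1 box in capitals.
AT1G71691: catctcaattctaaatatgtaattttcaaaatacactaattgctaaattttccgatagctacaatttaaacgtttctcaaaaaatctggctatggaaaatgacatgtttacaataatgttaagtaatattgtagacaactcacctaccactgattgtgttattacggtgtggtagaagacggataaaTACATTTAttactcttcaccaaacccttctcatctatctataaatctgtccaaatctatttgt
The capitals read TAAATGTA on the other strand and end 56 bases before the start. The L1 box was searched as TAAATGCA or TAAATGTA on both strands and was in the windows of 1 of the 14 genes called higher in outer nuclei (7.14%), 0 of the 2 called higher in inner nuclei and 230 of all 5303 genes tested (4.34%). The auxin response element, searched as TGTCTC or TGTCGG on both strands, was in 14.3% of the windows of the outer genes, in none of the 2 inner genes and in 14.6% of all. The core of the mitosis-specific activator element, CCAACGG, was in 7.14% of the windows of the outer genes, none of the inner genes and 2.23% of all. These shares are near those of all genes, and a match is a match of letters only.

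Lipid and cuticle genes formed part of the outer set. Among the genes of the rule, DCR and BDG1 are cuticle genes, so the outer direction of such genes is partly set by the selection. LACS2 (AT1G49430), a long-chain acyl-CoA synthetase of cutin synthesis, had 0, 0 and 5.29 CPM (lowest, median, highest) in inner nuclei, against 64.3, 202 and 468 CPM in outer nuclei (adjusted p = 0.0371, edgeR). ABCG15 (AT3G21090), a half-size transporter of the ABCG class, had 1 read in all inner nuclei and 16078 in outer nuclei, a ratio per count sequenced of 6798 (95% counting interval 1220 to 268533, adjusted p = 0.000167, edgeR). ABCG15 has close relatives in the genome, among which the counting could split reads. LTP3 (AT5G59320), a lipid transfer protein with a close relative beside it in the genome, had 0, 52.0 and 320 CPM in inner nuclei, against 990, 1498 and 2279 CPM in outer nuclei (log2 difference -5.21 ± 1.23, adjusted p = 0.0115, edgeR). For LACS2 and LTP3 no inner plate reached the lowest outer plate, while for ABCG15 plate 3 had 3.54 CPM in its inner nucleus, against 3.10 CPM in its outer nuclei.

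PDF2 (AT4G04890), the close relative of ATML1 that acts with it in the protoderm, was the one HD-ZIP IV gene past the threshold. It had 0, 0 and 95.5 CPM in inner nuclei, against 265, 742 and 1231 CPM in outer nuclei (log2 difference -9.30 ± 2.04, adjusted p = 0.00373, edgeR). Its sides did not overlap, and its reads were in 12.9% of inner nuclei and 84.1% of outer nuclei. PDF2 and ATML1 are similar in sequence and ATML1 was a gene of the rule. How far reads shared by both genes enter the value of PDF2 was not tested.

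The other outer calls were of varied kinds. AT3G24250, which encodes a glycine-rich protein, had 0, 15.3 and 105 CPM in inner nuclei, against 825, 1931 and 4352 CPM in outer nuclei (adjusted p = 3.11e-05, edgeR). AT4G29020, another glycine-rich protein, had 0 counts in inner nuclei and 8228 counts in 35 of 69 outer nuclei (50.7%, exact 95% interval 38.4 to 63.0%). Its outer reads per count sequenced were 1160 times a floor of 3 counts over the inner side, which is no lower bound. PME44 (AT4G33220), a pectin methylesterase of the cell wall, overlaps AT4G33230 on the other strand. It likewise had 0 counts in inner nuclei and 7805 counts in 38 of 69 outer nuclei, 1100 times the same floor. A count of 0 in 31 nuclei allows a share of up to 11.2% (exact upper bound). DWF4 (AT3G50660), the rate-limiting hydroxylase of brassinosteroid synthesis, had 0, 21.5 and 242 CPM in inner nuclei, against 608, 858 and 1884 CPM in outer nuclei (log2 difference -6.65 ± 1.62, adjusted p = 0.0182, edgeR).

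SCPL25 (AT3G02110), a serine carboxypeptidase-like protein, had 5 counts in 1 inner nucleus, against 7561 counts in 37 outer nuclei (adjusted p = 0.00373, edgeR). IQD17 (AT4G00820), a calmodulin-binding IQ-domain protein, had 1 count in inner nuclei, against 7900 in outer nuclei, a ratio per count sequenced of 3340 (95% counting interval 599 to 131953, adjusted p = 0.00514, edgeR). For both genes every outer plate lay above every inner plate. HHP1 (AT5G20270), a heptahelical membrane protein, had reads in 3.23% of inner nuclei and 40.6% of outer nuclei, with overlapping plates (adjusted p = 0.0474, edgeR). ENODL3 (AT4G28365), an early nodulin-like protein, had reads in 12.9% of inner nuclei and 40.6% of outer nuclei, also with overlapping plates (adjusted p = 0.0299, edgeR).

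The non-coding RNA AT1G78865 was called in the same direction on weaker ground. Its mean level was 618 ± 1717 CPM in inner nuclei and 365 ± 371 CPM in outer nuclei (SD, n = 8 plates), with 1 inner plate at 4868 CPM and 6 inner plates at 0. Outer nuclei were higher on 6 plates and inner nuclei on 1, and the fit with plate as a block gave a log2 difference of -8.81 (adjusted p = 0.0239, edgeR), where the fit without the block gave 0.76. The locus overlaps AT1G09833 on the other strand. Among the 14 outer calls, 11 were higher in outer nuclei on every plate, 10 had sides that did not overlap, and 11 had a median of 0 CPM in inner nuclei. The calls were made on these same values, so these numbers describe them and add no support. No share of all genes tested is set beside them. A gene at 0 on every inner plate entered the test only with counts on all 8 outer plates, so its direction was set beforehand. The same holds for SCPL25 and IQD17, which had too few inner counts for the filter. The thinned shares of 12 of the 14 differed at an adjusted p under 0.05 (exact permutation test), the exceptions being AT1G78865 and ENODL3.

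Leaving out each plate in turn divided the 16 calls. AT3G56770 on the inner side and AT1G71691, AT3G24250, ABCG15, AT4G29020 and IQD17 on the outer side, 6 in all, passed the threshold without any 1 of the 8 plates. Among these, the count filter had set the direction of AT3G56770, AT4G29020 and IQD17 beforehand. The other 10 lost the call at least once. ACI1 lost it without plate 6 (adjusted p = 0.0709, edgeR), PDF2 without plate 2 (0.0639), SCPL25 without plate 2 (0.0554) and PME44 without plate 7 (0.0646). DWF4 lost it without plate 1, 2 or 6 (0.0906 to 0.122) and LTP3 without plate 2, 5, 6 or 8 (0.0626 to 0.0927). LACS2 lost it without plate 1, 2, 5, 6 or 8 (0.1 to 0.2), AT1G78865 without plate 1, 2, 5, 6 or 7 (0.0817 to 0.214), ENODL3 without every plate but 3 and 4 (0.064 to 0.21), and HHP1 without every plate but 4 and 7 (0.0538 to 0.268). Without plate 3, which had 1 inner nucleus, HAN (0.0187), AGO10 (0.0097), FDH (0.0291) and HTH (0.0197) passed, and without plate 1 so did ROPGEF3 (0.0259). Without plate 4, HDG5 (0.0159), CYP78A5 (0.00728) and FDH (0.0373) passed.

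**Figure D2:**
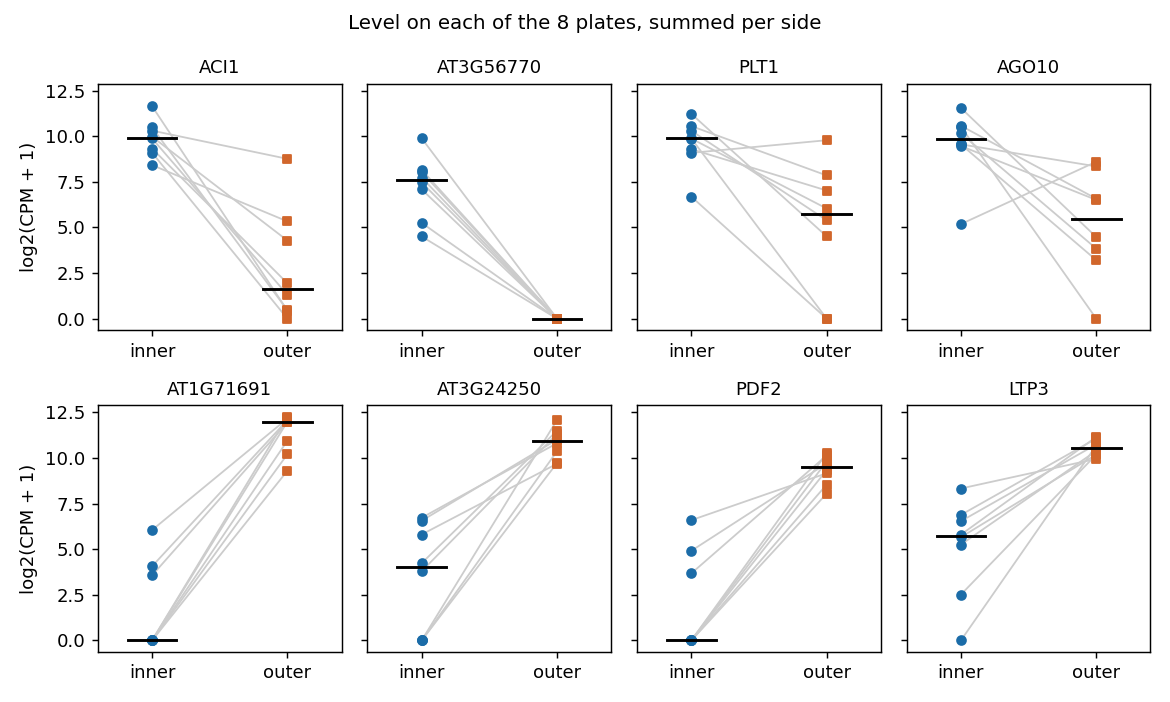
Level as log2(CPM + 1) (y axis) of 8 genes on each of the 8 plates, with inner nuclei as circles on the left and outer nuclei as squares on the right of each panel, grey lines joining the sums of a plate and black bars the medians. ACI1, AT3G56770, PLT1 and AGO10 slope down to the outer side on 7 or 8 plates, and AT1G71691, AT3G24250, PDF2 and LTP3 slope up on all 8, with no overlap of sides in the lower row.

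Most vascular regulators outside the rule had reads in a larger share of inner nuclei, and none of those tested was called. The list held 25 genes other than those of the rule, of which 8 passed the filter for the fit and were tested. None was called in either direction, where 0.0377% of all genes tested were called higher in inner and 0.264% higher in outer nuclei. For so short a list 0 calls is near that share, here and in the lists that follow. An unadjusted p under 0.05 was found for 1 gene, and the median log2 difference of the 8 was 0.97, against -1.63 over all genes tested. Their summed level ranged from 1474 to 6316 CPM over the plates in inner nuclei and from 395 to 1734 CPM in outer nuclei, and 19 of the 25 were in a larger share of inner nuclei and 3 in a larger share of outer nuclei, against 3102 and 2190 of all genes tested. AGO10 (AT5G43810), an Argonaute protein of the vasculature and the leaf upper side that withholds miR165/166 from HD-ZIP III transcripts, had 35.4, 946 and 2998 CPM (lowest, median, highest) in inner nuclei, against 0, 55.6 and 388 CPM in outer nuclei. It was higher on 7 of 8 plates (adjusted p = 0.216, edgeR), and its thinned share was 93.5% of inner nuclei and 21.7% of outer nuclei (adjusted p = 0.0286, exact permutation test). MP, the auxin response factor upstream of the vascular program, was at 74.2% and 69.6% (adjusted p = 0.677, exact permutation test), a difference that was not detectable here.

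Vascular genes that did not pass the filter for the fit are given as a description. TMO5 and T5L1, bHLH partners that drive vascular cell divisions, had reads in 32.3% and 35.5% of inner nuclei, against 1.45% and 2.90% of outer nuclei, and were chosen after their values were seen. Genes of later vascular tissue varied. CVP2, of vein patterning, had reads in 29.0% of inner nuclei and 15.9% of outer nuclei, with a log2 difference of -1.11 (adjusted p = 0.961, edgeR), and OPS, of the protophloem, in 16.1% and 5.80%, with a log2 difference of 1.5 (adjusted p = 0.957, edgeR). SMXL4 had reads in 22.6% of inner nuclei and 1.45% of outer nuclei, and did not pass the filter for the fit. PXY and WOX4, of the cambium, and TMO7 had no read on either side, AHP6 was at 0 in inner nuclei and in 5.80% of outer nuclei, and APL, of mature phloem, was in 3.23% of inner nuclei and at 0 in outer nuclei.

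The adaxial and abaxial regulators, HD-ZIP III, KANADI and ZPR genes, showed no call in either direction, which is near the share of all genes tested. Of 12 genes 4 were tested and 0 called (0 also at an unadjusted p under 0.05), with a median log2 difference of 1.08. PHB had 0, 434 and 925 CPM (lowest, median, highest) in inner nuclei, against 238, 356 and 823 CPM in outer nuclei. CNA was in 41.9% of inner nuclei and 10.1% of outer nuclei after thinning (adjusted p = 0.172, exact permutation test) and REV in 48.4% and 31.9% (adjusted p = 0.305). Other members had larger outer shares or levels and were chosen after their values were seen. KAN1, an abaxial factor, had 0 counts in inner nuclei and 5102 counts in 32 of 69 outer nuclei (46.4%, exact 95% interval 34.3 to 58.8%), and KAN2 had reads in 6.45% of inner nuclei and 33.3% of outer nuclei. Both had enough counts on too few plates to pass the filter for the fit. PHV had a log2 difference of -6.15 (adjusted p = 0.768, edgeR). PHB, CNA and REV are HD-ZIP III factors close in family to ATHB8, a gene of the rule.

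Auxin genes showed no call in either direction, again near the share of all genes tested. Of 13 genes of auxin transport and synthesis 5 were tested, all 5 lay above the median gene, and 1 had an unadjusted p under 0.05. LAX2, an auxin importer of the vasculature, had 0, 406 and 1381 CPM in inner nuclei, against 0, 0 and 441 CPM in outer nuclei (adjusted p = 0.452, edgeR), and its relative LAX1 was in 35.5% and 24.6% of nuclei after thinning. Of 24 response genes (ARF and Aux/IAA) 14 were tested and 0 called, 1 was higher in outer nuclei at an unadjusted p under 0.05, and 18 were in a larger share of inner nuclei. The repressor IAA9 had thinned shares of 80.6% and 49.3% (adjusted p = 0.0967, exact permutation test) and ARF1 of 45.2% and 36.2% over all nuclei, where the mean difference over plates was -2.19 percentage points (adjusted p = 1, exact permutation test).

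Receptor kinases of cell-to-cell signalling had no call on either side, also near the share of all genes tested. Of 14 genes 8 were tested and 0 called, 1 higher in outer nuclei at an unadjusted p under 0.05. ERL1, a receptor of the ERECTA family, had 0, 716 and 2714 CPM in inner nuclei, against 381, 832 and 1562 CPM in outer nuclei, its relative ERL2 had thinned shares of 71.0% and 46.4%, and the co-receptor SERK1 of 45.2% and 44.9%. For these 3 genes the adjusted p of the shares was 0.321 or above (exact permutation test).

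Root-pole genes had the largest positive median among the lists that the study did not pick. Of 8 genes 4 were tested, all 4 above the median gene with a median log2 difference of 3.69, and 0 were called, while 3 had an unadjusted p under 0.05. Their summed level ranged from 406 to 4590 CPM in inner nuclei and from 0 to 1285 CPM in outer nuclei. BBM (BABY BOOM), an AP2-type factor of the embryo, had 165, 658 and 1884 CPM (lowest, median, highest) in inner nuclei, against 0, 131 and 273 CPM in outer nuclei, and was higher on 8 of 8 plates. Its thinned shares were 80.6% and 36.2% (adjusted p = 0.0413, exact permutation test), against an adjusted p of 0.748 in the edgeR fit. PLT2 had thinned shares of 35.5% and 15.9% (adjusted p = 0.181). PLT3 (38.7% and 7.25%, adjusted p = 0.0665), chosen after its values were seen, did not pass either. WOX5, the marker of the quiescent center, had reads in 16.1% of inner nuclei and 0% of outer nuclei and was also chosen after its values were seen, with no test.

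Other genes of the inner side were chosen after their values were seen. RGF8, a root growth factor peptide that the study picked from these libraries and placed in vascular and columella initials, had 0, 240 and 994 CPM in inner nuclei, against 0, 11.3 and 27.9 CPM in outer nuclei (adjusted p = 0.639, edgeR), and thinned shares of 64.5% and 8.70% (adjusted p = 0.0413, exact permutation test). BRXL4, a BREVIS RADIX relative, had thinned shares of 71.0% and 14.5% (0.0286). CYP711A1, the MAX1 enzyme of strigolactone synthesis, had reads in 58.1% of inner nuclei and 5.80% of outer nuclei, but at a mean of 8.48 ± 7.65 CPM in inner nuclei and 8.10 ± 19.9 CPM in outer nuclei (SD, n = 8 plates), and its thinned shares did not pass (adjusted p = 0.118).

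Of 8 ground tissue genes none passed the filter for the fit, so none was tested. SHR, the GRAS factor made in the stele that moves to the next layer out, had reads in 21 of 31 inner nuclei (67.7%, exact 95% interval 48.6 to 83.3%) and 2 of 69 outer nuclei (2.90%, 0.353 to 10.1%), with an adjusted p of 0.0665 for the thinned shares (exact permutation test). SCR, its partner in the endodermis, was at 9.68% and 18.8%, and JKD at 19.4% and 11.6%, without thinning. MGP, NUC and AT3G45260 had no read on either side.

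Of the protoderm regulators PDF2 alone passed the test. Of 19 genes other than those of the rule 7 were tested, PDF2 was called, 4 had an unadjusted p under 0.05 in the outer direction, and the median log2 difference was -7.77. Over all genes tested 0.264% were called higher in outer nuclei, and the median log2 difference was -1.63. HDG5, another HD-ZIP IV gene, chosen after its values were seen, had 0, 0.238 and 67.6 CPM in inner nuclei, against 72.4, 354 and 801 CPM in outer nuclei (adjusted p = 0.0631, edgeR). Its thinned shares were 6.45% and 62.3% (adjusted p = 0.0286, exact permutation test). ACR4, a receptor kinase of the epidermis, had reads in 12.9% of inner nuclei and 17.4% of outer nuclei with a log2 difference of -1.97 (adjusted p = 0.945, edgeR). Stomatal and later epidermal factors SPCH, MYB16 and SHN1 had no read on either side.

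Cuticle genes stood on the outer side in 20 of 26 cases by share and on the inner side in 2. Of all genes tested, 2190 had a larger share of outer nuclei and 3102 of inner nuclei. Of the 26 genes 11 were tested, LACS2 was called, and 7 had an unadjusted p under 0.05, all outer, with a median log2 difference of -6.48. Over all genes tested 0.264% were called higher in outer nuclei, and the median log2 difference was -1.63. The summed level ranged from 110 to 1174 CPM in inner nuclei and from 1910 to 5670 CPM in outer nuclei, so the sides did not overlap. The cuticle genes DCR and BDG1 had helped to choose the outer nuclei, so this direction is partly set by the selection. FDH, an elongase of fatty acids, had 0, 18.5 and 102 CPM in inner nuclei, against 138, 829 and 1146 CPM in outer nuclei (adjusted p = 0.0533, edgeR). HTH, an oxidoreductase of cutin monomers, had 0, 12.6 and 70.7 CPM in inner nuclei, against 98.0, 409 and 1391 CPM in outer nuclei (adjusted p = 0.15, edgeR). The transporter ABCG11 (adjusted p = 0.123) and the anchored lipid transfer protein LTPG1 (adjusted p = 0.409) also missed the threshold in the edgeR fit. FDH, HTH, ABCG11 and LTPG1 were chosen after their values were seen. Wax genes CER1 and CER4 had no read on either side.

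CYP78A5 (KLUH), a cytochrome P450 that promotes organ growth, was likewise chosen after its values were seen. It had 0, 0 and 27.3 CPM in inner nuclei, against 34.0, 211 and 1318 CPM in outer nuclei (adjusted p = 0.075, edgeR), and thinned shares of 6.45% and 56.5% (adjusted p = 0.0286, exact permutation test). Like HDG5 and FDH, its sides did not overlap.

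The study had picked genes from these same libraries, most of them for in situ hybridization, so their direction is not independent evidence. Of its 5 protoderm genes 4 were tested, and AT4G29020 and SCPL25 were called in the outer direction, as were 0.264% of all genes tested. Their summed level ranged from 0 to 655 CPM in inner nuclei and from 1254 to 3982 CPM in outer nuclei over the 5 genes. AT3G13690, a kinase of the same group chosen after its values were seen, was in 6.45% of inner nuclei and 37.7% of outer nuclei after thinning (adjusted p = 0.0665, exact permutation test). Of its 5 vascular genes 4 were tested and ACI1 was called in the inner direction, as were 0.0377% of all genes tested. The summed level of the 5 was 548 to 5449 CPM in inner nuclei and 1.48 to 756 CPM in outer nuclei.

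**Figure D3:**
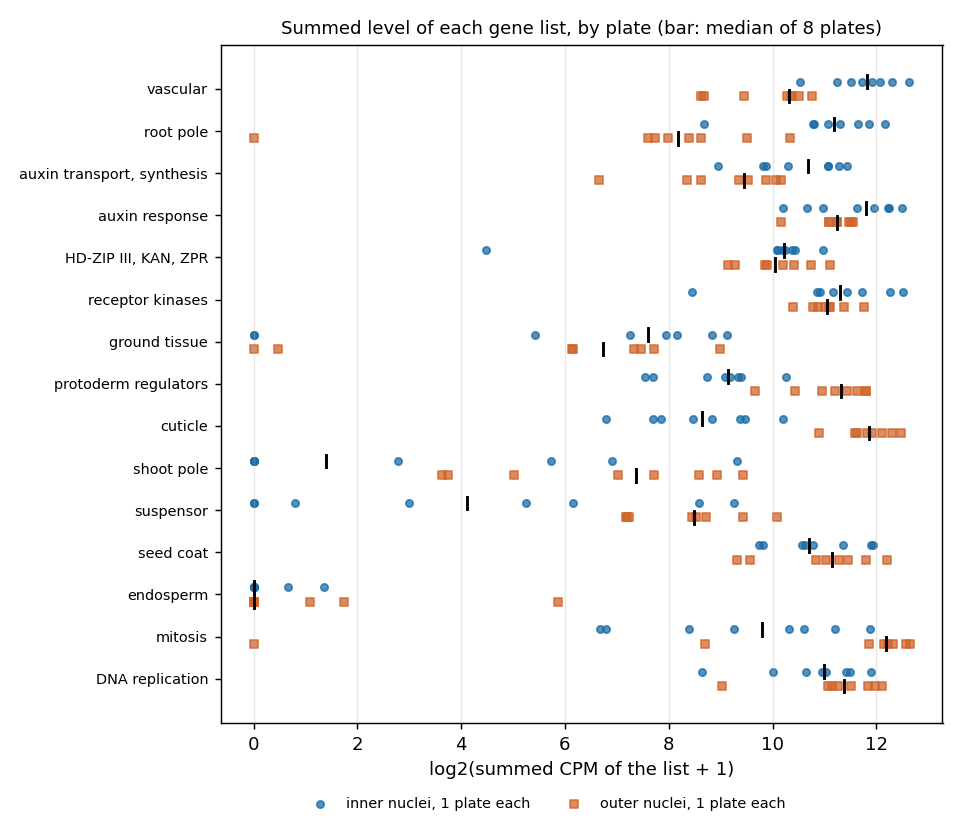
Summed level of each gene list as log2(summed CPM + 1) (x axis) on each plate, with inner nuclei as circles above outer nuclei as squares in each row and bars at the median of 8 plates. The cuticle rows do not overlap (110 to 1174 CPM inner, 1910 to 5670 CPM outer), while the seed coat and DNA replication rows lie over each other. The cuticle direction is partly set by the selection, since the rule held the cuticle genes DCR and BDG1.

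Markers of cell division and of other cell types are given here because they could differ between the sides, and their part in the results was not tested. Of 22 mitosis genes 15 were tested and 0 called, 5 being higher in outer nuclei at an unadjusted p under 0.05. Their summed level ranged from 101 to 3778 CPM (median 944) in inner nuclei and from 0 to 6398 CPM (median 4678) in outer nuclei. Nuclei with reads of at least 3 mitosis genes were 11 of 31 inner (35.5%) and 33 of 69 outer (47.8%). Without them the test called 3 genes higher in inner and 10 higher in outer nuclei among 2893. CDC20.1 and CDC20.2, near-identical neighbours, had reads in 19.4% of inner nuclei each, against 40.6% and 36.2% of outer nuclei, and the spindle protein TPX2 was at 16.1% and 36.2%. Of 21 DNA replication genes 13 were tested and 0 called, 0 also at an unadjusted p under 0.05, with MET1 at 48.4% and 33.3%, MCM5 at 29.0% and 26.1% and ICU2 at 32.3% and 34.8% of nuclei after thinning.

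Seed coat genes were found on both sides. Of 12 genes 8 were tested and 0 called, 0 also at an unadjusted p under 0.05, and the median nucleus had reads of 5 of them on the inner and 4 on the outer side. Their summed level ranged from 849 to 3926 CPM in inner nuclei and from 636 to 4735 CPM in outer nuclei. TT4, the chalcone synthase of flavonoids, had thinned shares of 83.9% and 68.1%, DFR of 54.8% and 47.8% and BAN, the anthocyanidin reductase of the seed coat, of 64.5% and 59.4%. TT10 and INO had no read in inner nuclei. With none of the 4 seed coat genes of the rule and no read of TT12 and INO allowed, 16 inner and 44 outer nuclei of 6 plates remained, and 1 and 3 genes were called among 4073. Endosperm markers were at or near 0, with a summed level of at most 1.57 CPM in inner nuclei and 57.6 CPM in outer nuclei over 6 genes. PHE1, FWA and AGL62 had no read on either side, MEA had none in inner nuclei, FIS2 had reads in 1 inner and 2 outer nuclei, and ZOU in 1 inner and 1 outer nucleus.

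Suspensor and shoot-pole genes were low, and most had no read in inner nuclei. The rule had left out the 288 of 534 nuclei with reads of CLSY1 or DML3. The study reports CLSY1 as enriched in the suspensor and DML3 in the basal lineage. Low suspensor genes are thus partly set by the selection. Of 10 suspensor genes 1 was tested and 6 were at 0 in inner nuclei and 3 in outer nuclei. WOX9, a homeobox factor of the basal lineage, had 0 counts in inner nuclei and 3615 counts in 16 of 69 outer nuclei (23.2%, exact 95% interval 13.9 to 34.9%). Its outer reads per count sequenced were 510 times a floor of 3 counts over the inner side, which is no lower bound. The thinned shares of WOX9, 0% and 21.7%, had an adjusted p of 0.0413 (exact permutation test). ROS1 was at 19.4% and 20.3% and DML2 at 3.23% and 5.80% after thinning. Of 13 shoot-pole genes 1 was tested and 10 were at 0 in inner nuclei and 4 in outer nuclei. DRN, an AP2 factor of the apical embryo, was at 0% and 11.6% after thinning (adjusted p = 0.118), WOX2 at 6.45% and 20.3%, and the boundary gene CUC3 at 3.23% and 4.35%.

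Nuclei were also ordered by how many rule genes they carried. The values are a description for genes chosen after their values were seen, depth also differs between the steps, and other named genes followed no order. Along the outer genes AT1G78865 was in 25%, 17.2%, 11.1%, 25.6% and 26.7% of nuclei, and along the inner genes DWF4 was in 53.1%, 37.5%, 61.5%, 9.09%, 75% and 66.7%. Among nuclei with at most 1 outer gene, PLT1 had reads in 18.4% of 49 nuclei with no inner gene, 62.5% of 16 nuclei with 1, just outside the limit, and 92.3% of 13 nuclei with 2, just inside it. AT3G56770 was at 8.16%, 31.2% and 53.8% of these nuclei and ACI1 at 24.5%, 37.5% and 53.8%. Both were in all 3 nuclei with 5 inner genes, as was HAN. Thus nuclei with 1 inner gene had shares between those below and above them for each of these 3 genes.

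Among nuclei without an inner gene, AT1G71691 had reads in 20% of 20 nuclei with no outer gene, 48.3% of 29 with 1, 66.7% of 27 with 2, just outside the limit, 82.1% of 39 with 3, just inside it, and 96.7% of 30 with 4. PDF2 followed the same order at 10%, 44.8%, 51.9%, 76.9% and 93.3%. AT4G29020 was at 5%, 6.90%, 37.0%, 41.0% and 63.3% of them. The median depth along these steps was 395242, 255141, 331461, 382440 and 556274 counts, so the nuclei with 4 outer genes were also the deepest. AT3G56770 was in 10%, 6.90%, 0%, 0% and 0% of the same nuclei.

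**Figure D4:**
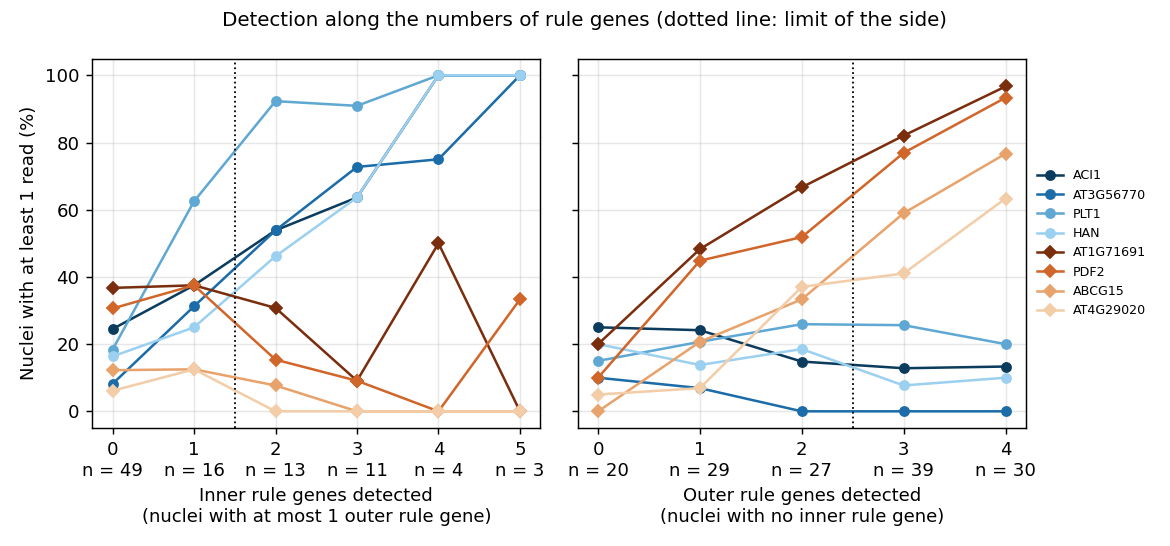
Share of nuclei with at least 1 read (y axis, percent) against the number of inner rule genes detected (left, nuclei with at most 1 outer gene) and of outer rule genes detected (right, nuclei with no inner gene), with the number of nuclei under each step and dotted lines at the limits of the sides. PLT1 reaches 92.3% at 2 inner genes and AT1G71691 96.7% at 4 outer genes, while AT3G56770 is at 0% from 2 outer genes on.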

How the data were processed

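Single nuclei of globular Col-0 embryos were measured by Smart-seq2 on 8 plates of 93 wells. The authors trimmed reads with cutadapt 2.6, quantified them with kallisto against Ensembl Plants TAIR10 transcripts, ERCC spike-ins and sGFP, and deposited estimated counts per gene and nucleus, as whole numbers that were not normalized. The step from transcripts to genes was not given in the sources used here. The tables of index sequences were not used beyond counting shared pairs. Retained nuclei held 21257765 to 50998340 counts per plate. Sums per side and plate held 282408 to 3870906 counts for inner nuclei and 527378 to 9037182 for outer nuclei.

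Each well received 1 sorted nucleus, so doublets were not called. Genes of the rule, organelle genes and rRNA, tRNA, snRNA and snoRNA genes were left out, which kept 86.6% of the counts in 31209 genes. Counts were summed per side and plate. The limit of 3 nuclei per side and plate left fewer than 5 plates, so, as set for that case, all 8 entered. Genes passing filterByExpr and detected in at least 10% of nuclei (mean of both sides) were tested by the quasi-likelihood test of edgeR 4.0.16 with TMM scaling (R 4.3.3). The filter filterByExpr asks for enough counts in at least 8 of the sums per side and plate. Genes absent from many plates could thus drop out whatever their total. Plate entered as a block, because both sides of a plate share its preparation. Standard errors were derived from the fitted difference and its F statistic. Alternatives were DESeq2 1.42.0, limma 3.58.1, no block, other filters, other limits on nuclei, and leaving out each plate. The fit was also run on counts simulated with its own dispersions, which cannot show how well the model suits these data. Thinning used seeded draws without replacement. The rest ran in Python 3.11.15 with scipy 1.17.1, pandas 2.3.3 and numpy 2.4.6. Coordinates and names are from RefSeq TAIR10.1, in which all 32222 nuclear loci were found.

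Named genes were the genes of the rule, up to 10 with the largest differences per direction among calls that reached 20 CPM and kept 1 direction across plates (the 5 with the smallest p where fewer than 5 qualified), all other called genes, and, per list, the called members or the 3 with the highest level. The members and the lists were chosen with earlier results of these data known. The results of 1 gene of the lists are not reported here. Other genes are said to be chosen after their values were seen.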

Additional observations from a re-analysis of the deposited data

Results flagged for a closer look

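Of 42 groups of 8 plates checked (log2 levels of the called or leading genes, depth and thinned features on each side), 13 held 1 plate whose gap to the others was past Dixon's limit. Chance gives about 1 in 20 for normally distributed values, which groups with many plates at 0 are not, so 13 cannot be set against that rate. Groups at 0 on every plate could not be flagged. In inner nuclei 5 of these were the single plate with reads of a gene that was at 0 on the others, which passes the limit at any level. The levels were 2.38 CPM for SCPL25 on plate 8, 0.587 CPM for IQD17, 5.29 CPM for LACS2 and 61.7 CPM for HHP1 on plate 7, and 3.54 CPM for ABCG15 on plate 3. The 2 low inner plates were plate 1 for ROPGEF3 (0 CPM) and plate 3, with its 1 inner nucleus, for PLT1 (102.5 CPM). On the outer side plate 3 was low for SCPL25 (14.3 CPM) and ABCG15 (3.10 CPM). Plate 4, with its 1 outer nucleus, was low for HHP1 (10.3 CPM), AT1G78865 (0 CPM) and ENODL3 (0 CPM). Plate 1 had the deepest outer nuclei, with a median of 898117 counts.

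Reads of sGFP, a transgene sequence outside the genes tested, were present in 16.1% of inner nuclei and 24.6% of outer nuclei.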

How the results depend on the processing

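Counts of calls moved with most choices, here as genes higher in inner and then in outer nuclei. DESeq2 gave 79 and 967, limma 13 and 23, plates with at least 2, 3 or 5 nuclei per side 8 and 37, 1 and 12, and 4 and 9, equal numbers of nuclei 4 and 3, inner nuclei without outer reads 0 and 15 (edgeR, 7 genes at an unadjusted p under 0.05 for the 0), stricter gene numbers 4 and 7, and the stricter seed coat exclusion 1 and 3. The limit of 3 nuclei was the one set first. Trying it again as an alternative, and the limit of 2, were choices made after seeing the data. All 16 genes called were tested with at least 2, 3 or 5 nuclei per side, of which 16, 7 and 4 were called. Leaving out 1 plate gave 1 to 5 and 6 to 27, with 5 inner calls without plate 3 and 1 without plate 6, and 9, 6, 27, 9 and 8 outer calls without plates 1, 2, 4, 5 and 6. The cause was not tested.

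Without the replicate block 3 and 17 genes were called, and 14 of the 16 remained. AT1G78865 reversed to 0.76 without it. MP reversed to -0.01 with at least 3 nuclei and to -0.31 with the stricter seed coat exclusion, and ARF1, in unthinned shares, to 0.46 percentage points. Unthinned, ROPGEF3 passed (adjusted p = 0.043) and ABCG15 (0.12) did not (exact permutation tests). The difference in features kept its direction and stayed short of the threshold in all alternatives. Apart from leaving out plates, 354 fitted differences of named genes kept direction and side of the threshold, 58 passed it newly, 52 lost it and 3 reversed. The number of nuclei limits precision, with 1 inner nucleus on plate 3 and 1 outer nucleus on plate 4.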
